A study of Drosophila melanogaster with 2 samples.

Results

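The peaks described are 626 non-divergent CG16779-eGFP promoter peaks of Drosophila melanogaster embryos, with the summit upstream of the nearest transcription start site (TSS). They were taken from the conservative list, the peaks kept at a threshold of 0.01 on IDR, the irreproducible discovery rate, a measure of whether a peak ranks alike in a pair of replicates. Of its 2516 peaks on the chromosome arms, 1391 had a summit within 500 bp of an annotated TSS. Peaks within 500 bp of TSSs of both genes of a protein-coding pair on opposite strands, with 5' ends at most 1000 bp apart, were set aside (288 peaks). Of the remaining promoter peaks, 626 had their summit upstream of the nearest TSS by its strand and 477 had it downstream. The upstream peaks were 45.0% of promoter peaks (exact 95% interval 42.4 to 47.7, counting error only).

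The study mapped the binding sites of a tagged protein by chromatin immunoprecipitation and sequencing (ChIP-seq). There was 1 group, with 2 biological replicates: whole embryos, 8 to 24 hours old, of the strain CG16779-GFP, transgenic flies expressing the CG16779 protein fused to eGFP, immunoprecipitated with an antibody against GFP from chromatin sheared to 200 to 800 bp. The labels do not name the promoter that drives the fusion, and the bulk chromatin of a whole embryo mixes many cell types, so a weaker peak and a peak in fewer cells cannot be told apart. No untagged or input library was analysed here, the signal value is the peak caller's own for each peak, and read depth is unknown. Peaks of 1 library are not replicates of each other, so differences between groups of peaks are given in each replicate and without a test.

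A promoter is the stretch of DNA around a TSS where RNA polymerase II is loaded. Its core, next to the TSS, holds short elements bound by the general transcription machinery, such as the TATA box, and in flies also the DNA replication-related element (DRE), Motif 1 and Motif 7, which are common in promoters of broadly expressed genes. The sequence just upstream is often kept free of nucleosomes and carries sites for regulatory proteins. In a compact genome many genes lie head to head and share an upstream region. The peaks below were not within 500 bp of the TSSs of both genes of such a protein-coding pair. Some still belong to a gene of such a pair, where the partner's TSS lay over 500 bp from the summit. A noncoding or more distant gene may also lie upstream.

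The 7 sequences below are from some of the strongest upstream peaks found by each replicate separately, and are shown because the strongest peaks lay in AT-rich sequence. Each covers up to 30 bp on each side of the summit in the direction of transcription, cut at the TSS and at annotated exons, on the release 6 genome (dm6) from RefSeq. That of PNPase lies between neighbouring TSSs of the gene. Capitals mark runs of 6 or more A or T. The windows are chrX:2703853-2703910 (minus strand) for Ugalt, which encodes a Golgi UDP-galactose transporter, and chr3L:19590580-19590640 (minus) for CG14100. They are chr3R:31404614-31404652 (minus) for PNPase, which encodes a mitochondrial polynucleotide phosphorylase, and chrX:2137325-2137385 (minus) for ph-p, which encodes the Polycomb protein Polyhomeotic-proximal. The others are chr3R:12449155-12449215 (plus) for CG18549, chr3R:16280706-16280766 (plus) for gish, which encodes a casein kinase, and chr3L:9457785-9457845 (plus) for CG3552. A and T made up 68.9 to 77.0% of these windows.
Ugalt: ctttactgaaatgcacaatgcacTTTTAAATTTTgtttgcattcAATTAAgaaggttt
CG14100: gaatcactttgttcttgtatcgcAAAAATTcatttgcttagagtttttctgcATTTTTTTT
PNPase: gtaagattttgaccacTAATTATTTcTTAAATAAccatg
ph-p: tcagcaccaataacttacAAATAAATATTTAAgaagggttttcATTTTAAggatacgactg
CG18549: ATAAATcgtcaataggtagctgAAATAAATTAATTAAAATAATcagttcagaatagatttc
gish: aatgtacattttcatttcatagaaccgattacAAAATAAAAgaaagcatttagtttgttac
CG3552: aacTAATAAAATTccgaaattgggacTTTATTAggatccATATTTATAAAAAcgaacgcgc

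The sequences that follow are shown because they hold core promoter elements or short words whose frequency is given further on. They extend up to 50 bp on each side of the summit, with the same cuts, and capitals mark the word. The DRE, TATCGATA, lies in eEF1gamma (a translation elongation factor subunit, chr3R:29220102-29220171, plus strand) and in CG7006 (chr3R:24850557-24850626, plus). The word CAACACTG, here on the other strand, lies in RpL23A (a ribosomal protein, chr3L:1668675-1668775, minus) and CG33116 (chr2L:19533397-19533478, plus). Motif 7, searched as CATCNCTA, lies on the other strand in Regnase-1 (an RNA-binding nuclease gene, chr3R:20036071-20036171, minus). The word CACTGTGC lies in PAN3 (a deadenylase subunit, chr3L:3081422-3081522, plus) and, on each strand, in Top1 (DNA topoisomerase, chrX:15323373-15323473, plus).
eEF1gamma: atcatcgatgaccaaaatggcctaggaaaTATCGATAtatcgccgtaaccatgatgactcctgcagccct
CG7006: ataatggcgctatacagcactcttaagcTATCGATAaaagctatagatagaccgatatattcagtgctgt
RpL23A: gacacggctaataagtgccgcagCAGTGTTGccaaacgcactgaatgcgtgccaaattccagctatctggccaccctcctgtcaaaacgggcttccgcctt
CG33116: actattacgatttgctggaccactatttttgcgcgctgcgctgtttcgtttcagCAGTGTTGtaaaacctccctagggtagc
Regnase-1: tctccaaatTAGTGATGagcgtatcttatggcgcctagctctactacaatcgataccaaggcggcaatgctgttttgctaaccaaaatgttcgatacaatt
PAN3: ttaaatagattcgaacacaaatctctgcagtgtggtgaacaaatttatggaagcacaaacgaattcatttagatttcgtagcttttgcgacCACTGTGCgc
Top1: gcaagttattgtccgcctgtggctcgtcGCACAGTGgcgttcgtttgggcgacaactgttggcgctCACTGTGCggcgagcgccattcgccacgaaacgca

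The upstream summits were spread more widely than the downstream ones. Their median distance from the TSS was 126 bp, with quartiles at 60 and 217 bp, against a median of 73 bp (quartiles 36 and 170 bp) on the downstream side. The first 50 bp upstream held 136 peaks (21.7%), the next 50 bp held 115 (18.4%), and bins of 50 bp then fell to 21 peaks between 451 and 500 bp. Beyond 200 bp lay 186 of the 626 (29.7%, exact 95% interval 26.2 to 33.5). No summit fell on the TSS itself.

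**Figure D1:**
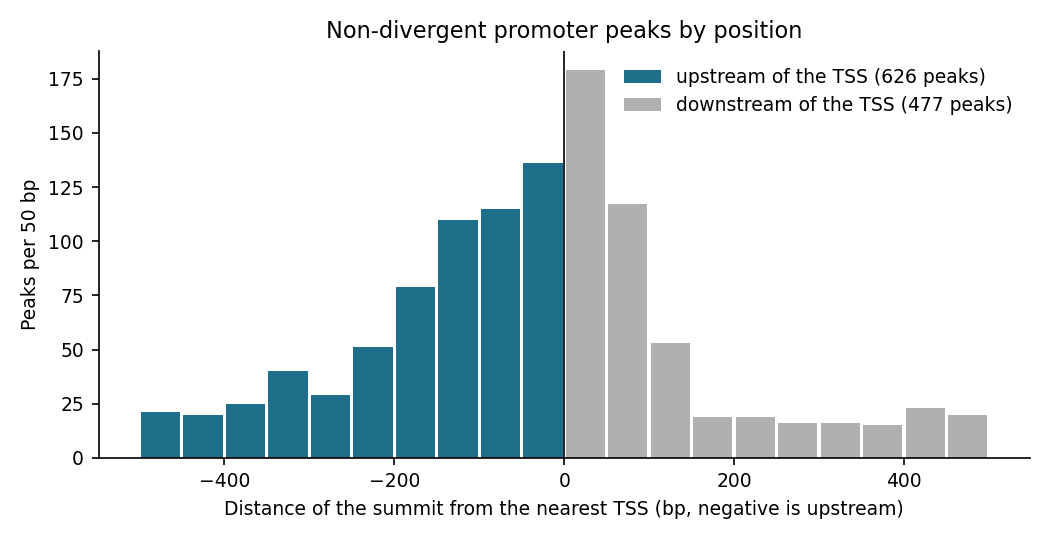
Number of non-divergent promoter peaks (vertical axis) in bins of 50 bp by signed distance of the summit from the nearest TSS in bp (horizontal axis, negative upstream). The 626 upstream peaks (blue) thin out gradually from 136 in the first bin, while most of the 477 downstream peaks (grey) lie in the first 2 bins, with 179 and 117 peaks.

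The peaks at the limits of the rule did not share a level of signal. The member with the greatest distance and the highest signal was that of ph-p, at 500 bp, with a signal of 304 in replicate 1 and 345 in replicate 2. CG17896 was also at 500 bp (221 and 193) and CG18004 at 498 bp (30.3 and 32.9). Just outside lay upstream summits of Pino at 502 bp (69.7 and 42.9), CG31229 at 503 bp (38.9 and 39.7) and sina, a ubiquitin ligase gene, at 505 bp (48.9 and 29.9). At the TSS, the nearest members were 1 bp upstream of RpL8 (55.1 and 66.0), CG13893 (41.9 and 54.8) and CG44325 (35.6 and 40.9), and the nearest excluded summits were 1 bp downstream of side-IV (31.8 and 31.8) and 2 bp downstream of vig2 (50.9 and 58.2) and hang (35.3 and 49.0). Replicate summits of a member lay a median of 22 bp from each other, so a side this close to the TSS is not resolved. By the own summit of each replicate, 587 members remained upstream in replicate 1, 578 in replicate 2 and 554 in both (88.5%, exact 95% interval 85.7 to 90.9).

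The signal of the 626 peaks had a median of 49.6 in replicate 1 and 48.7 in replicate 2, and the mean of the replicates ran from 31.6 to 564. The median SD of a peak between its replicates was 7.41. Spearman's rho between the replicates was 0.71 over the 626 peaks, which were selected for reproducibility between these same libraries. Only 9 peaks differed more than 2-fold between the replicates (1.44%), against 1.55% of all 2516. The 3 most shifted towards replicate 2 were row (28.2 in replicate 1 and 75.3 in replicate 2), Golgin245 (26.2 and 61.2) and CG5910 (29.3 and 67.8). Those most shifted towards replicate 1 were CG9498 (70.4 and 27.9), the translation factor gene eIF2A (65.7 and 27.5) and the mitochondrial carrier gene Dic1 (70.8 and 32.0).

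A summit within 100 bp was also found in the separately thresholded list of each replicate for 264 upstream peaks (42.2%, exact 95% interval 38.3 to 46.2), against 30.9% of the whole conservative list. The share was 23.5% of downstream peaks (19.7 to 27.5), 45.1% of divergent peaks (39.3 to 51.1) and 24.1% of peaks over 500 bp from any TSS (21.6 to 26.7). Another 216 upstream peaks (34.5%) had a summit in neither list. The own lists were thresholded in each replicate, and the share in both was 98.7% for the strongest 157 members, 60.9% for the next 156, 8.97% for the 156 after these and 0 of 157 for the weakest. In signal, upstream peaks exceeded downstream ones in both replicates, with medians of 49.6 against 42.5 in replicate 1 and 48.7 against 40.5 in replicate 2. The gaps were 7.10 and 8.14. Against the divergent peaks the direction differed between replicates, with a difference in medians of 1.16 in replicate 1 and of -4.33 in replicate 2.

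**Figure D2:**
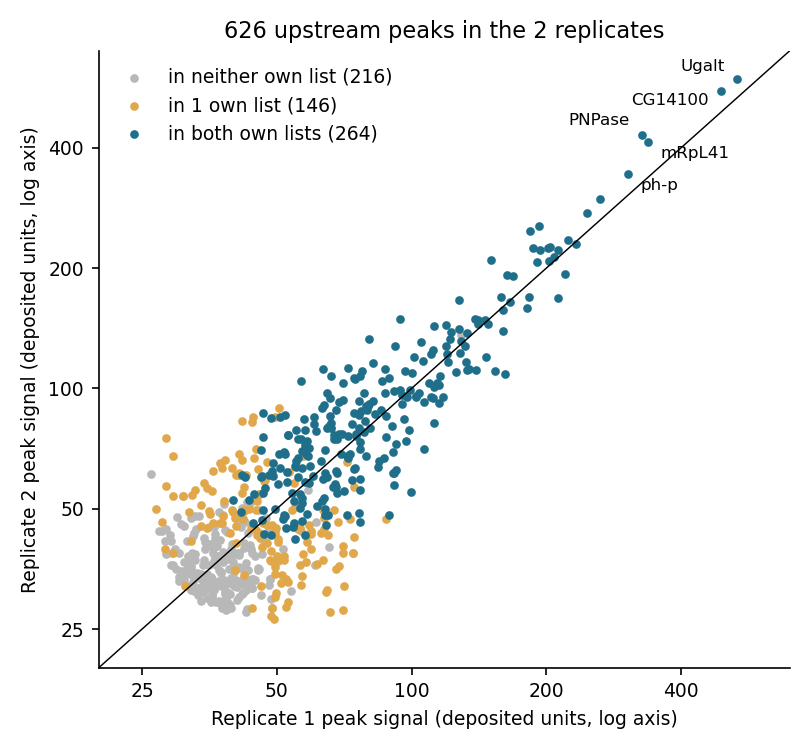
Signal of the 626 upstream peaks in replicate 1 (horizontal) and replicate 2 (vertical), both in the deposited units on log axes, 1 point a peak, with the line of equal signal. Points are coloured by whether a summit within 100 bp was in the own list of neither (216), 1 (146) or both (264) replicates, and the 5 strongest are named.

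The strongest peaks lay at genes of varied function. Ugalt led with 534 in replicate 1 and 594 in replicate 2, with its summit 28 bp upstream of its outermost TSS. CG14100 followed with 491 and 556 at 86 bp, and PNPase with 328 and 430 at 76 bp upstream of an internal TSS. The own summits of the replicates at PNPase were nearer to another of its TSSs and lay 84 and 79 bp downstream of it, so its side is not resolved. In both libraries these stood above the other members except mRpL41, a gene of the mitochondrial ribosome, which had 337 and 415 at 127 bp.

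Next came ph-p at 500 bp and CG1888 at 229 bp with 263 and 298. Fkbp14, which encodes a prolyl isomerase of the endoplasmic reticulum, had 247 and 274 at 130 bp. CG18549 had 233 and 230 at 111 bp, px, a wing vein patterning gene, 224 and 235 at 204 bp, and gish 212 and 222 at 153 bp. Among the 20 strongest in both own lists were also moody, which encodes a receptor of the glial blood-brain barrier (204 and 227 at 170 bp), the glycolytic gene Gapdh2 (208 and 213 at 175 bp) and the transcription factor gene Sox14 (186 and 225 at 253 bp). The remaining 7 were lncRNA:CR44619, CG3552, lncRNA:CR31044, MFS10, CG17896, CG1635 and Tina-1. The 20 had mean signals of 199 to 564, and replicate 2 was the higher in 18 of them, against 323 of all 626 members (51.6%). The largest ratio between their replicates was 1.34-fold on the deposited scale. Their replicate summits were at most 31 bp apart.

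The weakest members were near the lower limit of the list in both libraries. CG18004 had 30.3 and 32.9, NTPase 31.2 and 32.1, and CLIP-190, which encodes a microtubule-binding protein, 33.9 and 29.4. CG4629 had 32.2 and 31.3, and Atx2, which encodes the RNA-binding protein Ataxin-2, had 31.3 and 32.2. None of these 5 was in both own lists. The own summits at NTPase lay 33 bp downstream of the TSS in both replicates. For CG4629 and Atx2 the matched summit in replicate 2 lay 243 and 129 bp from the listed one.

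Signal varied with distance in the same way in both replicates. In the first 50 bp upstream, the 136 peaks had medians of 43.1 in replicate 1 and 42.8 in replicate 2, and 37 of them (27.2%) were in both own lists. Between 151 and 200 bp, the 79 peaks had medians of 70.2 and 74.9, the highest of the 10 bins in each replicate, and 47 (59.5%) were in both lists. Between 401 and 500 bp, the 41 peaks had medians of 41.1 and 38.5, and 11 (26.8%) were in both. Ugalt, at 28 bp, and ph-p, at 500 bp, were exceptions at either end.

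Base composition moved with both. GC content over 101 bp around the summit had a median of 41.6% in the upstream peaks, 51.5% in downstream peaks and 37.6% in divergent ones. In the first 50 bp upstream the peaks were richer in GC than promoters with no peak, with a median of 50.5% against 43.6% over windows centred 25 bp upstream of 12043 protein-coding TSSs outside divergent pairs and with no summit within 500 bp. Between 151 and 200 bp they were poorer, with 32.7% against 37.6%. They were also poorer from 251 to 300 bp (32.7% against 37.6%) and from 301 to 350 bp (34.7% against 37.6%). In every other bin they were equal or richer, for instance 42.6% against 40.6% from 51 to 100 bp and 39.6% against 37.6% from 201 to 250 bp. The median GC fell from 49.5% in the 157 weakest members to 44.1%, 38.6% and 33.7% in the 3 stronger groups of 156, 156 and 157. Across the 626 peaks, GC and signal had a Spearman rho of -0.37 in replicate 1 and -0.42 in replicate 2. These points share libraries, and the part of base composition in the signal was not tested.

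**Figure D3:**
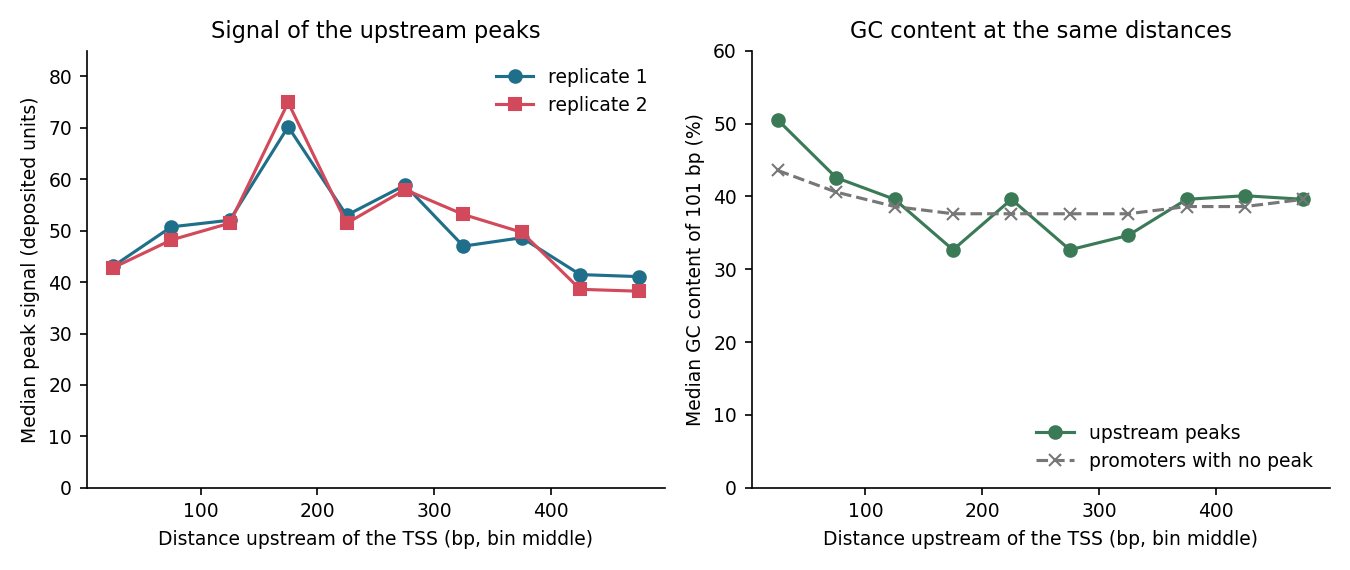
Left, median signal (deposited units) of the upstream peaks in 10 bins of 50 bp by distance upstream of the TSS, in replicate 1 (circles) and replicate 2 (squares). Right, median GC content (%) of 101 bp at the same distances in the upstream peaks (circles) and in promoters with no peak (crosses). The bin of 151 to 200 bp has the highest signal in each replicate (70.2 and 74.9) and a GC content of 32.7%.

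The dependence on distance differed with base composition. Among the 209 members with the lowest GC (16.8 to 34.7%), the median signal was 54.3 in replicate 1 and 58.4 in replicate 2 within 100 bp of the TSS, 68.4 and 70.7 from 101 to 200 bp, and 63.6 and 67.9 beyond. Among the 202 with the highest GC (48.5 to 69.3%), it was 45.0 and 42.6 within 100 bp, 42.1 and 38.2 from 101 to 200 bp, and 35.7 and 35.1 beyond. The peaks poor in GC thus had the higher signal in every range of distance, and those rich in GC were weakest far from the TSS. Of the 20 strongest members in both own lists, 17 had a GC content under 40%. The exceptions were moody (52.5%), lncRNA:CR31044 (46.5%) and MFS10 (46.5%). Over all members, the share under 40% was 72.0% in the strongest 157. It was 57.1% and 35.9% in the next groups of 156, and 24.2% in the weakest 157.

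**Figure D4:**
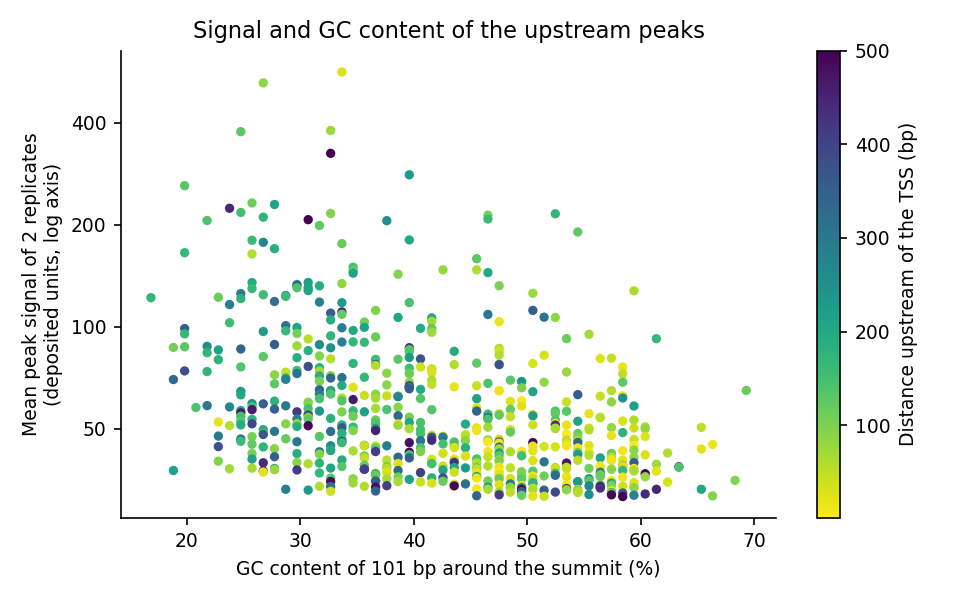
Mean signal of the 2 replicates (vertical, deposited units, log axis) against GC content of 101 bp around the summit (horizontal, %) for the 626 upstream peaks, coloured by distance upstream of the TSS in bp. The 5 strongest peaks have a GC content of 24.8 to 33.7%, and the peaks of high GC content include many close to the TSS.

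Core promoter elements depended on distance. The DRE occurred within 50 bp of 20 of the 626 summits (3.19%, exact 95% interval 1.96 to 4.89), of which 12 were among the 136 peaks within 50 bp of the TSS (8.82%, 4.64 to 14.9). Windows of the same 101 bp centred 25 bp upstream of all TSSs held it in 4.65% of 23697. Between 51 and 100 bp, 6 of 115 peaks held it (5.22%, 1.94 to 11.0), against 3.26% of windows centred at 75 bp, and beyond 100 bp 2 of 375 did (0.533%, 0.0647 to 1.91), against 0.916% at 150 bp. Each of these reference values lay within the interval of the members, the one at 25 bp at its lower limit. The reference windows were of all TSSs, including those of divergent pairs, so they are not matched to the members in this respect. The 5-letter core CGATA, which also occurs within the DRE and is bound by the insulator protein BEAF-32, was in 50 of the 136 nearest peaks (36.8%, 28.7 to 45.5) against 23.4%, a value below that interval, and in 45 of the 375 beyond 100 bp (12%, 8.89 to 15.7) against 14.3%.

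Motif 7 was held by 21 members (3.35%, exact 95% interval 2.09 to 5.08). It was in 8 of the 136 nearest peaks (5.88%, 2.57 to 11.3) against 2.89% of promoter windows at 25 bp, and in 8 of the 115 peaks from 51 to 100 bp (6.96%, 3.05 to 13.2) against 1.43% at 75 bp. In the latter range the promoter value lay below the interval of the members. The motif lay a median of 34.5 bp from the summit. Within 25 bp of the summit it was in 0.479% of members, against 0.418% of promoter windows centred 126 bp upstream. This reference is not matched to the distance of the members. By the same reference the DRE was in 1.60% against 0.460% and CGATA in 11.5% against 7.40%. Motif 1, searched as its core GGTCACAC, was in 10 members (1.60%, 0.769 to 2.92), 8 of them within 50 bp of the TSS (5.88%, 2.57 to 11.3, against 3.70%). It was in none of the 375 peaks beyond 100 bp.

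The strongest holder of the DRE was Alg3, a gene of N-glycan synthesis, with 146 in replicate 1 and 148 in replicate 2 at 80 bp. RpL41, a ribosomal protein gene, followed with 122 and 133 at 63 bp. For Motif 7 they were the glycolytic gene Eno (99.4 and 99.3 at 283 bp) and Gpat4, an acyltransferase gene (75.3 and 77.0 at 16 bp). For Motif 1 they were the ribosomal protein gene RpL27A (59.0 and 70.8 at 2 bp) and eIF2A. Of the 20 strongest members in both own lists, none held the DRE or Motif 1 near its summit. Over all members the shares were 3.19% and 1.60%, too low for a count of 0 of 20 to set these apart. Among the strongest 157 members, 6 held the DRE (3.82%) and 0 held Motif 1.

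The TATA box sequence TATAAA was in 99 members (15.8%, exact 95% interval 13.04 to 18.9), against 17.8% of promoter windows centred 126 bp upstream, the median distance of the members. It was less frequent near the TSS, with 12 of the 136 nearest peaks (8.82%, 4.64 to 14.9) against 16.03% of promoters at 25 bp. Beyond 100 bp it was in 71 of 375 (18.9%, 15.1 to 23.3), against 18.4% at 150 bp. The word lay a median of 164.5 bp upstream of the TSS, so most of these words were not next to the TSS. Members with TATAAA had median signals of 63.1 in replicate 1 and 63.3 in replicate 2, against 48.2 and 47.2 without it. Their median GC content was 31.7%, so the word and the low GC content go together. Its strongest holders were Fkbp14 and CG18549.

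Other words were compared with promoters at 126 bp. The GAGA repeat GAGAGAG, recognised by GAGA factor, was in 4.31% of members against 3.55%, with Dysb (97.7 and 95.05 at 76 bp) and the cytoskeletal linker gene shot (87.6 and 85.1 at 61 bp) as its strongest holders. It was in 2.30% of upstream peaks without replicate 1 and in 2.89% without replicate 2, when the own list of the other replicate was used. CTCTCTCT, which overlaps it on the other strand, was in 1.92% against 1.90%. Motif 6 (GTATNTTT) was in 4.95% against 4.73%, led by mRpL41 and Hpf1 (128 and 141 at 84 bp), and the E-box CAGCTG of Motif 5 in 4.79% against 4.55%, led by Hpf1 and the lipid phosphatase gene Lpin (112 and 143 at 211 bp). The E-box CACGTG was in 0.799% against 1.16%, led by Dysb and RpL11 (57.04 and 53.3 at 30 bp). CACACACA was in 2.56% against 2.19%, led by RpS27A (76.4 and 48.8 at 43 bp) and bs, the fly serum response factor gene (64.6 and 31.0 at 20 bp), but in 1.02% without replicate 1 and 0.787% without replicate 2. AAAAAAAA was in 5.27% against 6.50%, led by CG14100 and mRpL41. The Zelda word CAGGTAG was in 0 of the 626, where the interval reached 0.588% and promoters held 0.582%.

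All words of 8 bp were ranked on arms 2L and 2R by the difference in share between members and other promoters, and read on 3L, 3R, 4 and X. The windows of the other promoters were centred 126 bp upstream. The leading word was CACTGTGC. On 2L and 2R it was in 12 of 265 members (4.53%) and 0.456% of other promoters, and on the remaining arms in 10 of 361 members (2.77%) and 0.552%. CAACACTG was in 9 of 265 (3.40%, against 0.674%) and 12 of 361 (3.32%, against 0.458%). CACAGTGG, which overlaps CACTGTGC on the other strand, was in 3.77% against 0.522%, and in 2.49% against 0.429%. The DRE was also among the leading words, with 4.15% against 0.989% and 2.49% against 1.12%. At matched distances the promoter shares given above lay within the intervals of the members, though nearest the TSS only just. ATCGATAG, another leading word, overlaps the DRE. It was in 3.40% against 0.902%, and in 4.71% against 1.07%. Of the 10 leading words, 8 were also higher in members on the remaining arms and 2, ACTAAAAA and AAAAATGT, were lower there (0.554% against 1.34% and 2.22% against 3.001%).

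The leading words were also read by distance from the TSS. On the remaining arms, which did not enter the ranking, CACTGTGC was in 0 of 70 peaks within 50 bp (interval up to 5.13%) and in 2 of 66 from 51 to 100 bp (3.03%, exact 95% interval 0.369 to 10.5, against 0.602% of promoters at 75 bp). Beyond 100 bp it was in 8 of 225 (3.56%, 1.55 to 6.89, against 0.517% at 150 bp), where the promoter value lay below the interval. CAACACTG was in 6 of the 70 nearest peaks (8.57%, 3.21 to 17.7, against 1.59% at 25 bp, below the interval) and in 3 of the 225 beyond 100 bp (1.33%, 0.276 to 3.85, against 0.460%). ATCGATAG was in 11 of the 70 nearest peaks (15.7%, 8.11 to 26.4, against 4.60% at 25 bp, below the interval). Beyond 100 bp it was in 2 of 225 (0.889%, 0.108 to 3.17, against 0.907%). The 22 peaks with CACTGTGC had a median signal of 48.6 in replicate 1 and 64.2 in replicate 2, with replicate 2 the higher in 14. They were led by CG7737 (213 and 168 at 122 bp), PAN3 (141 and 145 at 96 bp) and Top1 (87.3 and 97.2 at 168 bp). CAACACTG was led by Hsp83, the fly Hsp90 gene (153 and 111 at 99 bp), RpL23A (91.5 and 98.6 at 71 bp) and CG33116 (76.4 and 79.4 at 32 bp). Any of the 6 leading words was in 67 members (10.7%), whose median signal was 49.8, against 50.1 in the other 559. This count includes 2L and 2R, where the words were ranked by their excess in members. The share of promoters with any of these words is not given here.

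The annotation under the summits was mixed. The summit was intergenic in 313 members, in an intron in 221 (35.3%), in a 5' UTR of another transcript in 54 (8.63%), in a noncoding exon in 21, in a 3' UTR in 9 and in a coding exon in 8. The 8 in coding exons were far from the TSS (median 468.5 bp), rich in GC (58.9%) and weak, with medians of 33.8 and 33.1, and 0 of them were in both own lists. The 54 in 5' UTRs were centred 52 bp (median) upstream, with signals of 48.1 and 45.8. The 9 in 3' UTRs had medians of 57.5 and 60.2.

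The nearest TSS was the outermost of its gene in 408 members (65.2%, exact 95% interval 61.3 to 68.9) and an internal, alternative one in 218. Median signals were 49.6 and 49.3 at outermost TSSs and 48.9 and 47.8 at internal ones. Where the TSS was outermost, protein-coding and outside divergent pairs (320 members), the upstream neighbour was on the same strand in 55.6% (49.99 to 61.2), on the opposite strand in 23.1% (18.6 to 28.1), and the TSS lay inside another gene in 21.2% (16.9 to 26.1). The shares over all 9159 such TSSs were 53.8%, 21.9% and 24.2%, each within the interval of the members. The median gap to the neighbour was 1006 bp, against 957 bp for all. A TSS of another gene within 500 bp of the summit was found for 93 members (14.9%), on the opposite strand for 62.

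The 626 peaks were assigned to 552 protein-coding genes (3.95% of 13968) through 581 peaks. Protein-coding genes held the nearest TSS of 92.8% of members, against 81.4% of all 24111 TSSs. The nearest TSS of the other members was of a noncoding RNA gene in 39 cases (6.23%, against 14.3% of all TSSs). It was of a tRNA gene in 3 (0.479% against 1.20%), a snoRNA gene in 2 (0.319% against 1.12%) and a snRNA gene in 1 (0.160% against 0.133%). The strongest members at genes other than protein-coding ones were lncRNA:CR44619 (192 and 255 at 443 bp), lncRNA:CR31044 (202 and 225 at 99 bp) and tRNA:Tyr-GTA-1-8 (122 and 139 at 209 bp, inside CG8036). Uhg4, a host gene of snoRNAs, had 128 and 123 at 75 bp, and lncRNA:CR42657 had 91.9 and 128 at 355 bp. Protein-coding members had median signals of 49.9 and 49.0, and the 39 at noncoding RNA genes 46.3 and 46.9. More than 1 upstream peak was found at 25 genes, and 39 genes also had a downstream peak.

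By function, cytoplasmic ribosomal protein genes had the largest number of upstream peaks among the lists examined, with 15 of 91 genes (16.5%, exact 95% interval 9.53 to 25.7), against 3.95% of all protein-coding genes. Of the 91 genes, 60.4% are in divergent pairs, against 4650 of all 13968 protein-coding genes. A promoter peak of any class was found at 51 of the 91 (56.0%). For a peak of any class the share over all protein-coding genes is not given here, since the 3.95% covers upstream peaks only. Promoter peaks at these genes were thus not particular to the upstream class. Their upstream peaks were close to the TSS, at a median of 29 bp, with a median mean signal of 55.2. Of the 15, 10 were in both own lists, against 42.2% of all upstream peaks and 30.9% of all conservative peaks. The strongest were RpL41, RpL23A and RpS28b, the last with 68.7 in replicate 1 and 92.5 in replicate 2 at 29 bp. At the other end was RpL39, with 31.6 and 37.0 at 15 bp. Translation factors had 4 of 52 (7.69%, 2.14 to 18.5), led by eEF1gamma (115 and 92.0 at 20 bp), eIF2A and eIF5B (42.7 and 31.3 at 153 bp). Mitochondrial ribosomal protein genes, of which 76.7% are in divergent pairs, had 3 of 73 (4.11%, 0.856 to 11.5), namely mRpL41, mRpL53 (71.9 and 48.2) and mRpL4 (44.6 and 33.1).

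In the other housekeeping lists the intervals included the 3.95% of all genes. In all but the heat shock list, 42.9% (oxidative phosphorylation) to 81.0% (nuclear pore) of the genes are in divergent pairs, whose shared promoters were set aside. Over all protein-coding genes this holds for 4650 of 13968, and its part in these counts was not tested. Oxidative phosphorylation had 1 of 84 genes, ND-ASHI (119 and 128 at 258 bp), and vesicle traffic 2 of 63, the endosomal gene Rab5 (42.2 and 39.96) and Vps15 (30.5 and 45.8). There were 0 of 48 for the proteasome (interval up to 7.40%), 0 of 33 for aminoacyl-tRNA synthetases (up to 10.6%), 0 of 29 for general transcription factors (up to 11.9%), 0 of 25 for Mediator (up to 13.7%) and 0 of 21 for the nuclear pore (up to 16.1%). Heat shock genes had 2 of 19 (10.5%, 1.30 to 33.1), the small heat shock gene Hsp27 (160 and 139 at 153 bp) and Hsp83.

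The developmental lists held 1 to 3 genes with an upstream peak each. In the Wnt list, 2 of 21 genes had one: sgg, the GSK3 kinase (107 and 92.6 at 212 bp), and the pathway antagonist nkd (63.6 and 59.2 at 147 bp). In the Hedgehog list 2 of 10 did, the glypican gene dlp (41.7 and 49.1 at 11 bp) and the receptor gene ptc (33.0 and 44.4 at 32 bp). The muscle list had 3 of 18 (16.7%, 3.58 to 41.4): the heart regulator tin (70.5 and 55.5 at 201 bp), the titin-like gene sls (54.6 and 52.3 at 279 bp) and Mef2 (37.5 and 34.6 at 13 bp). By the own summit of replicate 1, ptc and Mef2 lay 20 and 26 bp downstream of their TSSs. The neuronal list had 2 of 15, elav (74.9 and 105 at 287 bp) and the active-zone gene Rim (48.5 and 29.7 at 11 bp). The glial list had 2 of 6 (33.3%, 4.33 to 77.7), moody and the glutamine synthetase gene Gs2 (49.6 and 35.8 at 492 bp).

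The cell cycle list had 2 of 33, Dp, an E2F partner (79.0 and 90.3 at 195 bp), and CycE (35.7 and 29.2 at 209 bp). The Notch (numb), EGF receptor and Ras (spi), TGF-beta (shn), Hox (Antp) and Polycomb and trithorax (ph-p) lists had 1 gene each, of 25, 20, 16, 8 and 26. There were also 0 of 180 chemosensory receptor genes (interval up to 2.03%), 0 of 96 cuticle protein genes (up to 3.77%) and 1 of 85 cytochromes P450. Among the lists of 15 or more genes, the exact interval lay wholly above 3.95% for the cytoplasmic ribosomal proteins and wholly below it for chemosensory receptors and cuticle proteins. A promoter peak of any class was found at 0 of the 180 and 1 of the 96, so this lack was not particular to the upstream class. The glial list, with 6 genes, had an interval from 4.33%, also above 3.95%.

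**Figure D5:**
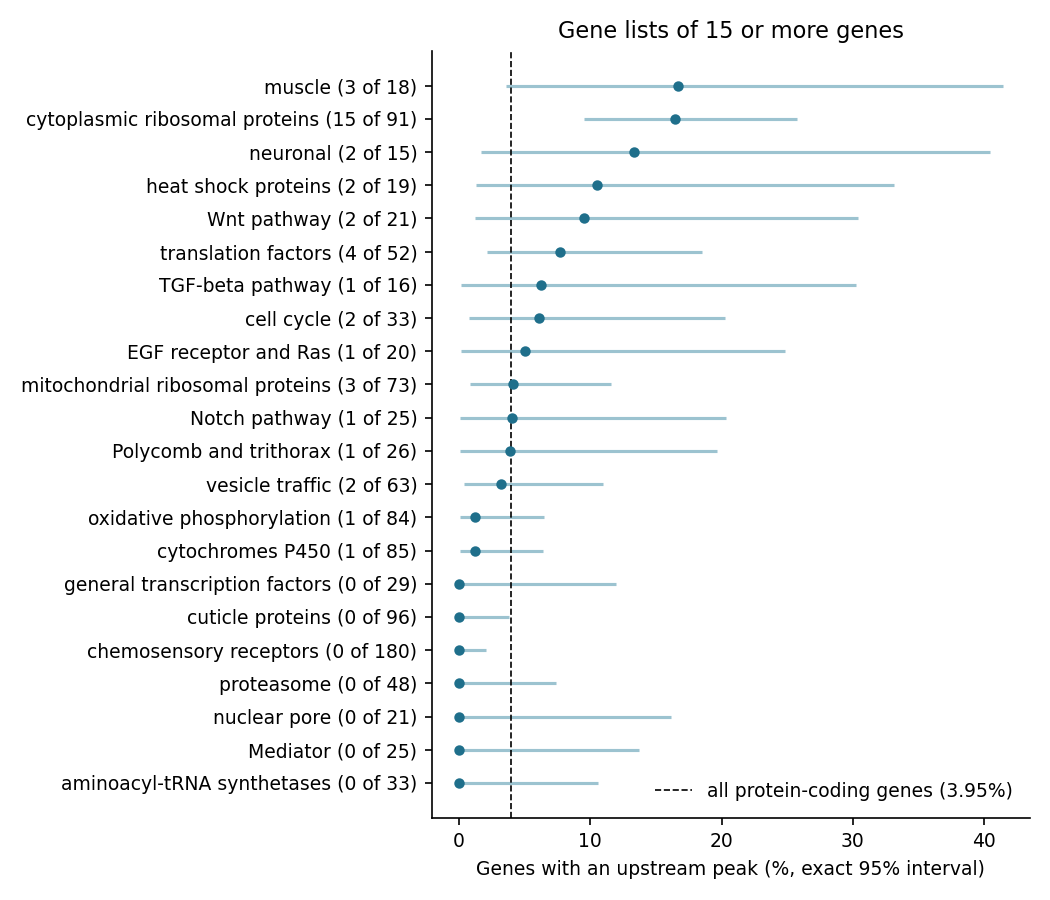
Share of genes with an upstream peak (horizontal, %) for each list of 15 or more genes (vertical, with counts), with exact 95% binomial intervals that cover counting error only. The dashed line is the 3.95% of all protein-coding genes, which lies below the interval of the cytoplasmic ribosomal proteins and above those of the chemosensory receptors and cuticle proteins.

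A small set of members had replicate values that may not belong to the listed position. In 23 members the matched peak of each replicate was also matched to another listed peak, for instance at fray, where summits 115 and 315 bp upstream carried the same 66.0 and 79.6. In 13 members the signal listed over both replicates was under 0.5 of the sum of the replicate signals, as at prage (4.07 listed, against 129 in replicate 1 and 136 in replicate 2). Without these and 6 members whose replicate summits both lay over 100 bp away, 603 members had a median mean signal of 50.1 (49.9 with them), a median distance of 125 bp and 43.4% in both own lists.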

How the data were processed

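ChIP-seq peak lists of 2 biological replicates of whole CG16779-GFP embryos were analysed. Per the labels, positions are on dm6 and chromatin was sonicated. The aligner, the peak caller and the handling of a control are not given in the sources used here, and the control that the labels point to was not analysed here. The peak lists were deposited by the authors and not called again. Peak signal is as deposited by the authors, on a scale not given in the sources used here. The −log10 IDR column, as deposited, served only to check that every peak of the conservative list passed an IDR of 0.01. Per-replicate signals and summits came from columns without names in the deposited ranked list. These columns were tied to a replicate by finding 106479 (replicate 1) and 107258 (replicate 2) of 136703 entries exactly in that replicate's ranked list, and 0 in the other's. The files hold no read counts, so depth is unknown.

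Summits were assigned to the nearest of 24111 TSSs of Ensembl release 115, with sequence from the RefSeq release 6 genome, in Python 3.11.15 (pandas 2.3.3, numpy 2.4.6, scipy 1.17.1). Peaks off the chromosome arms were left out. Summits counted as shared within 100 bp. GC content and 13 motifs were read within 50 bp of the summit on both strands. Motif references were windows of the same length at stated distances upstream of all TSSs. Intervals on shares are exact (Clopper-Pearson) at 95% and cover counting error only. No test was made across peaks, and the 2 replicates are too few for a permutation test. Class assignment and motif search were checked on simulated summits. The members, gene lists and motifs were chosen with earlier results of these data known.

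Members were named by a rule: the 20 strongest in both own lists, up to 3 of each gene list with 2 or more genes, those at the distance limits, the 5 weakest, the strongest 2 for each motif, the 5 strongest at noncoding genes and the 3 most shifted to each replicate. Holders of 8-bp words, RpL39, ND-ASHI, fray and prage were named after their values were seen. Alternatives were other peak lists, each replicate alone, the stronger part of the list, other distances, gene models, divergent pairs and windows. Those on displaced or shared peaks and on the class by each replicate's own summit were chosen after seeing the data.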

Additional observations from a re-analysis of the deposited data

How the results depend on the processing

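With a single group and no test, a result was taken to hold when it stayed within its exact interval, within the median SD between replicates, or, for the number of genes, within 1.5 times. The pooled-read list, TSSs of protein-coding genes only and divergent pairs of any biotype moved none of the members' share, distance, GC content, number of genes or shares of the DRE, Motif 1 and Motif 7, and the pooled-read list gave no replicate signals or ratio. Allowing divergent pairs further apart changed no value, since a summit must lie within 500 bp of both TSSs. With the own list of 1 replicate, the upstream share of promoter peaks was 50.3 to 51.9% (45.0% in the conservative list), the median signal 66.0 to 66.1, the distance 128 to 143 bp, the GC content 38.6 to 39.6%, the number of genes 346 to 347, and the share with Motif 1 0.525 to 0.765%. With the peaks above the median of the conservative list, these were 49.1%, 63.4, 136.5 bp, 37.6% GC and 357 genes, with 67.7% in both own lists. At a promoter distance of 250 bp the share was 49.6% and the median distance 89 bp, and at 1000 bp 41.4% and 178.5 bp. Within 25 bp of the summit the DRE was in 1.60%, Motif 1 in 0.639% and Motif 7 in 0.479% of members. Keeping the peaks whose class was the same by each replicate's own summit gave a GC content of 39.6%. No paired analysis was possible because there is 1 group. The unknown read depth limits the weak members: 145 of the 157 weakest were in neither own list, and a promoter without a listed peak is not shown to be unbound.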
